A study of Mus musculus with 9 samples.

Results

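Laminins, collagen IV and perlecan are the structural proteins of the basement membrane, the thin sheet of matrix on which every epithelium rests. The genes described here are those of 6 laminin chains (Lama3, Lama5, Lamb1, Lamb2, Lamb3 and Lamc1), both common collagen IV chains (Col4a1 and Col4a2) and the core protein of perlecan (Hspg2). They were taken by symbol, each symbol matched 1 Ensembl gene, and they make up 9 of the 46517 genes counted. All 9 were among the 14870 genes with enough reads to be tested. Their RNA was measured in colonies of mouse intestinal stem cells (ISCs), the dividing crypt cells that renew the gut lining, after 4 days in 1 of 3 matrices. Group 1 grew in Matrigel, the basement membrane material secreted by a mouse sarcoma, which itself supplies laminin, collagen IV and perlecan protein. Group 2 grew in a hydrogel of polyethylene glycol (PEG), a synthetic polymer, that cells cannot degrade, and group 3 in a PEG hydrogel that they can. All groups received R-spondin, noggin, EGF, the GSK3 inhibitor CHIR99021 and valproic acid. There were 3 libraries per group. The sources used here do not give the age, strain or genotype of the mice, or the stiffness and ligands of each gel.

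A laminin is a cross of an alpha, a beta and a gamma chain, and the chains assemble inside the cell before secretion. The alpha chain carries most of the binding to integrins and dystroglycan, so the mix of chains sets which receptors a basement membrane engages. Collagen IV trimers of alpha 1 and alpha 2 chains form a covalent network under the laminin sheet, and perlecan, a heparan sulfate proteoglycan, bridges both and holds growth factors. In the gut wall the epithelium makes laminins, and cells of the underlying mesenchyme make much of the collagen IV.

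Each library held 38.0 M to 47.2 M reads assigned to genes. Pairs of libraries correlated at r = 0.969 (Matrigel replicate 1 and non-degradable PEG replicate 3) to r = 0.995 (log2 CPM across genes). Levels are given as CPM, read counts divided by library size, after TMM scaling, edgeR's trimmed-mean correction of library size. A gene passed the test at a Benjamini-Hochberg adjusted p under 0.05 over all tested genes in the edgeR quasi-likelihood test, which pools the spread of the 9 libraries. The labels do not state that libraries of a matrix came from different animals or cultures, so the p-values describe the spread between these libraries, which may be technical. In bulk RNA, fewer cells of a type and less RNA per cell cannot be told apart. Epithelial markers (Epcam, Cdh1, Vil1, Krt8, Krt18, Krt19 and Cdx2) summed to 5028 to 5318 CPM in Matrigel, 5352 to 6425 in non-degradable PEG and 5833 to 6584 in degradable PEG, with none of the 7 near 0. Crypt base markers (Lgr5, Olfm4, Ascl2, Smoc2 and Axin2) summed to 2682 to 2844, 1809 to 1914 and 2179 to 2353 CPM, of which Smoc2 alone made up means of 1944, 1157 and 1386. The 5 markers did not move together: Ascl2 rose in both gels, from 15.3 to 25.9 and 28.9 CPM (edgeR adjusted p = 0.00117 and 0.000484), Axin2 was at 568, 461 and 656 CPM, Lgr5 at 195, 198 and 155 CPM and Olfm4 at 65.1, 27.7 and 37.9 CPM.

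The genes differ in how their starts are arranged, and the sequences here are the pieces that bear on the read counts and on the genes that moved. On GRCm38, Col4a1 (ENSMUSG00000031502, chromosome 8, 11198423 to 11312826, minus strand) and Col4a2 (ENSMUSG00000031503, chromosome 8, 11312805 to 11449287, plus strand) stand head to head, and their first exons overlap by 22 bases. That overlap is the only exon sequence the pair shares, and it is shown on each strand with the letters GGGCGG or CCGCCC (the GC box, a site that Sp1-type factors can bind) in capitals, from RefSeq with GRCm38.p6. For Lamb1 (ENSMUSG00000002900, chromosome 12, 31265234 to 31329644, plus strand) and Hspg2 (ENSMUSG00000028763, chromosome 4, 137468769 to 137570630, plus strand) the bases just before the first annotated exon are shown in the same way, since these genes passed the test in both PEG gels, in opposite directions.
Col4a2 strand, chr8:11312805-11312826: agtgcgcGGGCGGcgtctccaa
Col4a1 strand, chr8:11312805-11312826: ttggagacgCCGCCCgcgcact
Lamb1, plus strand, chr12:31265043-31265233: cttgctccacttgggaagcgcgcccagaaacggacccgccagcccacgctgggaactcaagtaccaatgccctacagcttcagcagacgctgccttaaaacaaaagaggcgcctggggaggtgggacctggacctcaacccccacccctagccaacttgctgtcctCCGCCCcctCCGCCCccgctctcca
Hspg2, plus strand, chr4:137468553-137468768: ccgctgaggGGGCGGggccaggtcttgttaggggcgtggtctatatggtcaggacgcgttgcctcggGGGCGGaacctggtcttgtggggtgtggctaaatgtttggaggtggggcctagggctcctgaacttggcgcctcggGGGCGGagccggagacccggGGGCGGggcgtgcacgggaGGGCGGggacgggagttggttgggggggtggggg
The 191 bases of Lamb1 hold 2 GC boxes and 63.9% G or C, and the 216 bases of Hspg2 hold 5 GC boxes and 70.8% G or C. RefSeq windows from 250 bases before to 50 bases after an annotated RefSeq start were found for 7 of the 9 genes, 8 windows in all. Such a start need not be the first base of the gene as given here. Both Lamb3 windows lay inside the gene, far downstream of the first base given below, so they do not describe the sequence there. GC boxes on either strand numbered 4 in the window of Lama5, 5 in Hspg2, 3 in Col4a2, 2 in Lamb1 and 1 in Col4a1, and no window of Lamb2 or Lamb3 held these letters. The windows of Col4a1 and Col4a2 overlap, and both hold the 22 shared bases with the GC box shown above. The 1 match of Col4a1 is thus also among the 3 of Col4a2. Of all 32851 mouse windows, 35.7% held a GC box. Windows with a GC box thus occurred among genes that rose in PEG and in Hspg2, which fell. The letters CCAAT (either strand) were in the windows of Col4a1, Col4a2 and Lamb1, 1 match each, and in 37.4% of all windows.

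Against Matrigel, collagen IV and the laminin beta 1 chain were higher in both PEG gels, perlecan was lower in both, and the laminin beta 3 chain was lower in the non-degradable gel. In non-degradable PEG, 3 of the 9 genes rose (Lamb1, Col4a1 and Col4a2), 2 fell (Lamb3 and Hspg2) and 4 did not pass. Over all tested genes 16.8% passed in this comparison, 9.71% higher and 7.13% lower. In degradable PEG the same 3 genes rose and 1, Hspg2, fell, beside 12.2% of all genes passing, 7.42% higher and 4.79% lower. Without Matrigel replicate 1 only 1 of the 9 genes, Lamb1, passed in degradable PEG, and the Hspg2 call there ended in 12 of 18 alternatives. The median log2 fold change of the 9 genes was 0.28 in non-degradable and -0.06 in degradable PEG, beside -0.00210 and -0.0163 over all tested genes. In 6 of the 9 genes the 3 non-degradable libraries did not overlap with the 3 Matrigel libraries, as in 43.4% of all genes, and likewise in 6 of 9 for degradable PEG, as in 30.4% of all genes. Both comparisons use the same Matrigel libraries. A test over all 3 matrices passed 5 of the 9 genes (Lamb1, Lamb3, Col4a1, Col4a2 and Hspg2), beside 16.3% of all genes.

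**Figure D1:**
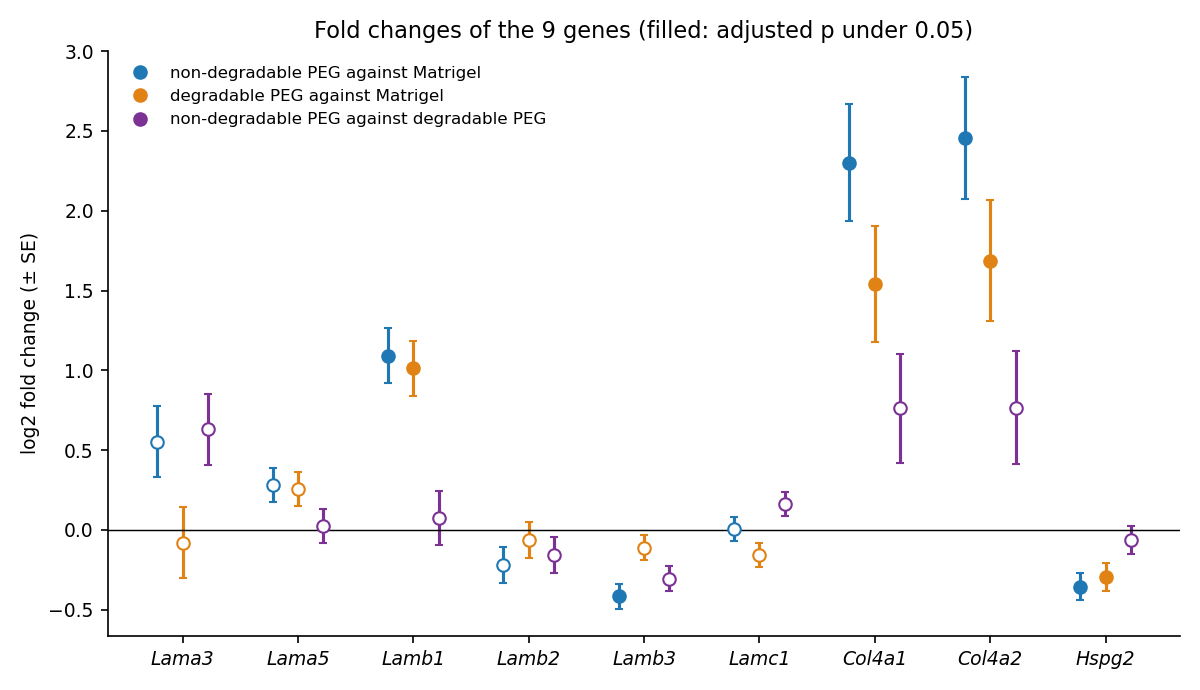
The log2 fold change (y axis, error bars are the standard error) of each gene (x axis) in the 3 comparisons, filled where the adjusted p was under 0.05. Col4a1 and Col4a2 have the highest points, from 2.30 to 2.45 in non-degradable and 1.54 to 1.69 in degradable PEG against Matrigel, and no point of the comparison between the PEG gels is filled.

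Col4a1 encodes the alpha 1 chain of collagen IV. It was at 5.15, 10.9 and 3.02 CPM in the Matrigel libraries, at 24.2, 38.1 and 32.1 in non-degradable PEG and at 22.7, 18.3 and 14.7 in degradable PEG. Every PEG library lay above every Matrigel library, and the non-degradable libraries lay above the degradable ones. The fold change against Matrigel was 4.93 in non-degradable PEG (log2 fold change 2.30 ± 0.364 SE, edgeR adjusted p = 0.00184) and 2.91 in degradable PEG (1.54 ± 0.361, edgeR adjusted p = 0.0182).

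Col4a2 encodes the alpha 2 chain, the partner of alpha 1 in the trimer. Its level was 5.17, 12.1 and 3.30 CPM in Matrigel, 27.5, 47.3 and 38.5 in non-degradable PEG and 26.1, 23.6 and 16.9 in degradable PEG. Within each matrix the libraries stood in the same order as for Col4a1, with Matrigel replicate 2 the highest of its group. Col4a2 was 5.48-fold higher in non-degradable PEG (log2 fold change 2.45 ± 0.382, edgeR adjusted p = 0.00167) and 3.22-fold higher in degradable PEG (1.69 ± 0.379, edgeR adjusted p = 0.0147). Reads per library ran from 137 to 1500 for Col4a1 and from 150 to 1861 for Col4a2, so counting error was small beside the spread among the Matrigel libraries, where the highest was 3.62 times the lowest for Col4a1 and 3.66 times for Col4a2. Without Matrigel replicate 2 the log2 fold changes rose to 2.96 for Col4a1 and 3.16 for Col4a2 in non-degradable PEG and to 2.20 and 2.4 in degradable PEG. Without Matrigel replicate 1 the calls in degradable PEG ended (edgeR adjusted p = 0.0693 for Col4a1 and 0.0594 for Col4a2), while those in non-degradable PEG held in all 18 alternative analyses.

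The sum of both collagen IV genes, as CPM per kilobase of exon (RPKM), was 1.47, 3.29 and 0.903 in Matrigel, 7.40, 12.2 and 10.1 in non-degradable PEG and 6.99, 6.01 and 4.53 in degradable PEG. The 3 groups did not overlap, and each of the 3 pairwise differences had an exact permutation p of 0.1, the smallest that 3 against 3 libraries allow (adjusted p = 0.171 over 24 ratios and sums). The ratio of Col4a2 to Col4a1 per kilobase, on the log2 scale, was 0.18, 0.32 and 0.30 in Matrigel, 0.36, 0.48 and 0.43 in non-degradable PEG and 0.37, 0.54 and 0.38 in degradable PEG. It was 0.156 and 0.159 higher in the PEG gels than in Matrigel (exact permutation p = 0.1 each, adjusted p = 0.171) and differed by -0.00331 between the PEG gels (exact permutation p = 1.0).

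**Figure D2:**
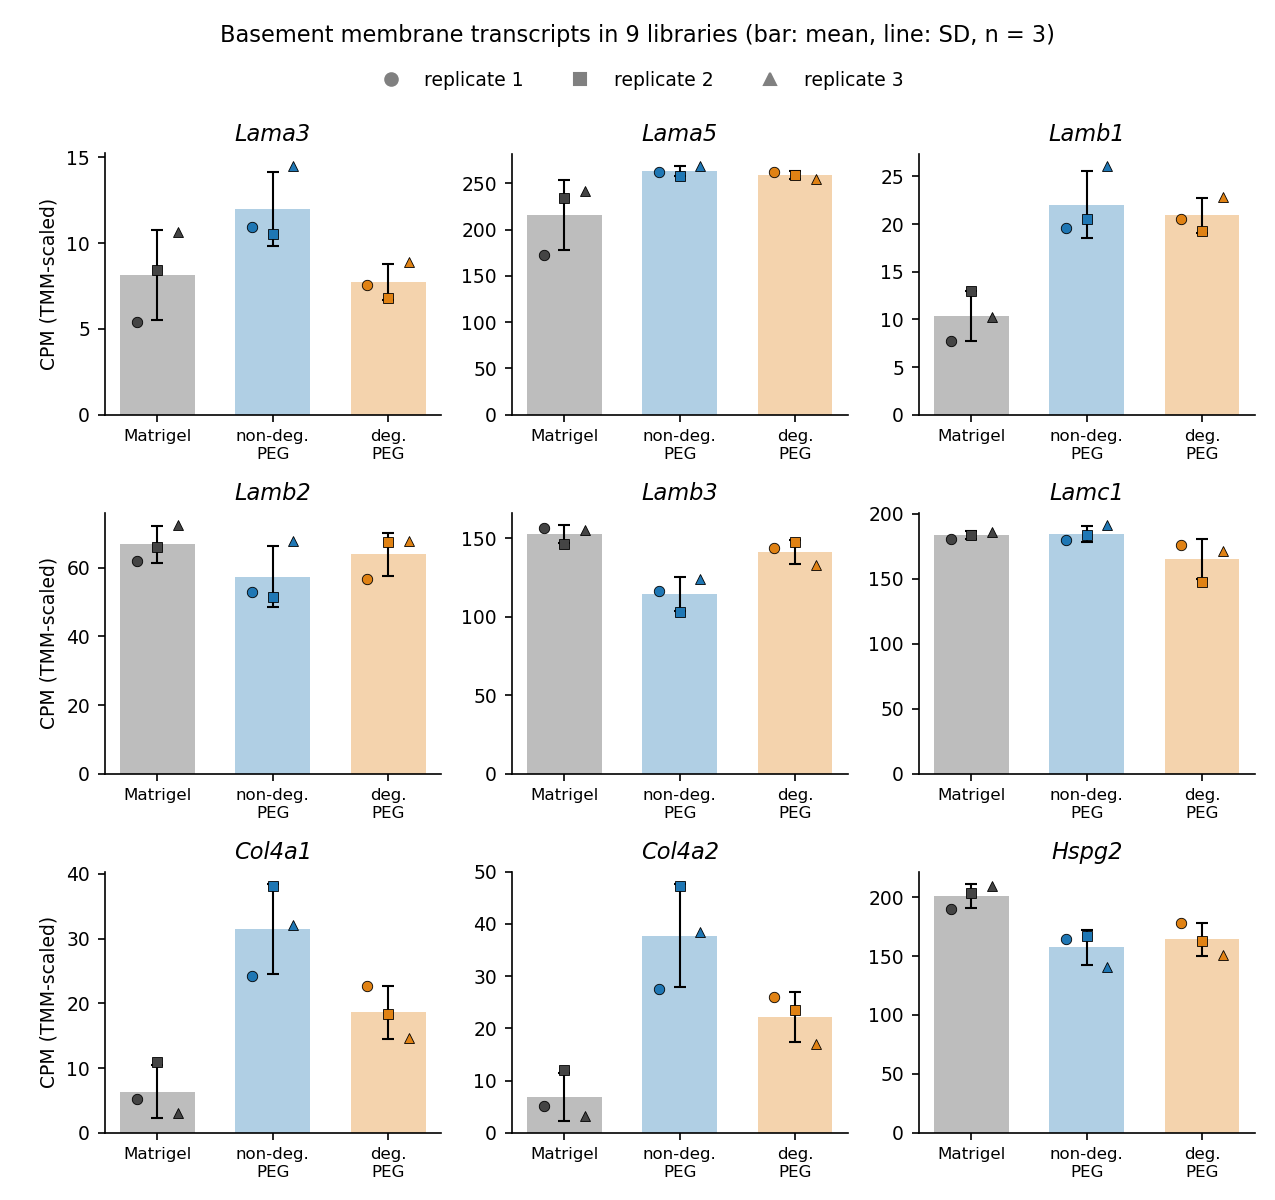
TMM-scaled CPM (y axis, linear, from 0) of the 9 genes in the 3 matrices (x axis), with 1 point per library, shaped by replicate number, bars for the mean and lines for the SD (n = 3). The Col4a1, Col4a2 and Lamb1 panels show all 6 PEG libraries above the 3 Matrigel libraries, and the Hspg2 panel shows them all below.

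Of both laminin alpha chains, which carry the receptor-binding domains, Lama5 had the higher level per length (19.0 against 0.759 RPKM in Matrigel). It encodes the alpha 5 chain, the main alpha chain of adult basement membranes (ENSMUSG00000015647, chromosome 2, 180176373 to 180225859, minus strand). Lama5 was at 173, 234 and 242 CPM in Matrigel, 262, 258 and 269 in non-degradable PEG and 262.5, 259 and 254 in degradable PEG. All 6 PEG libraries lay above all Matrigel libraries, of which replicate 1 was the lowest. The difference did not pass the test in either gel: log2 fold change 0.28 ± 0.107 in non-degradable PEG (95% interval 0.0478 to 0.517, edgeR adjusted p = 0.0916) and 0.26 ± 0.107 in degradable PEG (0.0238 to 0.493, edgeR adjusted p = 0.145).

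Lama3 encodes the alpha 3 chain of the laminin that anchors hemidesmosomes (ENSMUSG00000024421, chromosome 18, 12333819 to 12583013, plus strand). Its level was 5.40, 8.42 and 10.6 CPM in Matrigel, 10.9, 10.5 and 14.5 in non-degradable PEG and 7.55, 6.80 and 8.87 in degradable PEG. The non-degradable libraries overlapped with Matrigel replicate 3 and lay above all degradable ones. The log2 fold change against Matrigel was 0.55 ± 0.221 in non-degradable PEG (edgeR adjusted p = 0.107) and -0.08 ± 0.223 in degradable PEG (95% interval -0.569 to 0.412, edgeR adjusted p = 0.858). With the replicate number as a block, which pairs these libraries, Lama3 passed in non-degradable PEG (0.57, edgeR adjusted p = 0.0219), so that 6 of the 9 genes passed, and 3877 of all genes in place of 2504. It also passed without Matrigel replicate 3 (0.78, edgeR adjusted p = 0.0433) and with no filter on low counts (0.54, edgeR adjusted p = 0.0453).

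The laminin beta chains moved in different directions. Lamb1 encodes the beta 1 chain, the beta chain of the laminins of the embryo and of many adult basement membranes. It was at 7.78, 13.0 and 10.2 CPM in Matrigel, 19.6, 20.5 and 26.1 in non-degradable PEG and 20.6, 19.3 and 22.9 in degradable PEG. The lowest PEG library was above the highest Matrigel library, and the PEG gels overlapped each other. Lamb1 rose 2.13-fold in non-degradable PEG (log2 fold change 1.09 ± 0.173, edgeR adjusted p = 0.00184) and 2.02-fold in degradable PEG (1.01 ± 0.173, edgeR adjusted p = 0.00309), and both calls held in all 18 alternatives.

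Lamb3 encodes the beta 3 chain, which occurs with alpha 3 in the hemidesmosomal laminin (ENSMUSG00000026639, chromosome 1, 193207699 to 193343878, plus strand). Its level was 157, 146 and 155 CPM in Matrigel, 116, 103 and 124 in non-degradable PEG and 144, 148 and 133 in degradable PEG. The non-degradable libraries were below all others, and the degradable ones overlapped with Matrigel. Lamb3 fell in non-degradable PEG by 0.42 ± 0.0790 on the log2 scale (edgeR adjusted p = 0.00511, held in all 18 alternatives). In degradable PEG its log2 fold change was -0.11 ± 0.0787 (95% interval -0.285 to 0.0610, edgeR adjusted p = 0.399).

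Lamb2 encodes the beta 2 chain, best known from kidney and neuromuscular basement membranes (ENSMUSG00000052911, chromosome 9, 108479736 to 108490530, plus strand). It was at 61.9, 66.1 and 72.5 CPM in Matrigel, 53.0, 51.5 and 67.8 in non-degradable PEG and 56.8, 67.4 and 67.7 in degradable PEG. The 3 groups overlapped. The log2 fold change was -0.22 ± 0.113 in non-degradable PEG (95% interval -0.467 to 0.0312, edgeR adjusted p = 0.208) and -0.06 ± 0.113 in degradable PEG (-0.312 to 0.186, edgeR adjusted p = 0.765).

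Lamc1 encodes the gamma 1 chain, shared by most laminins (ENSMUSG00000026478, chromosome 1, 153218922 to 153332786, minus strand). It was at 181, 184 and 186 CPM in Matrigel, 179, 183 and 191 in non-degradable PEG and 176, 147 and 171 in degradable PEG. Matrigel and non-degradable PEG overlapped, and the degradable libraries were lower than both. The log2 fold change was 0.01 ± 0.0743 in non-degradable PEG (95% interval -0.155 to 0.171, edgeR adjusted p = 0.954) and -0.16 ± 0.0743 in degradable PEG (-0.320 to 0.00696, edgeR adjusted p = 0.203).

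Hspg2 encodes perlecan. Its level was 190, 204 and 210 CPM in Matrigel, 164, 167 and 141 in non-degradable PEG and 178, 163 and 151 in degradable PEG. All 6 PEG libraries lay below all Matrigel libraries. Perlecan RNA fell by 0.35 ± 0.0868 on the log2 scale in non-degradable PEG (edgeR adjusted p = 0.0187) and by 0.29 ± 0.0868 in degradable PEG (edgeR adjusted p = 0.0497). The first call ended without Matrigel replicate 2 (edgeR adjusted p = 0.0645), Matrigel replicate 3 (0.0605) or non-degradable PEG replicate 3 (0.0785), and the second ended in 12 of 18 alternatives, at an adjusted p of up to 0.165 without degradable PEG replicate 3. Its call over all 3 matrices (edgeR adjusted p = 0.0295) ended in 5 of 17 alternatives, at up to 0.117 without Matrigel replicate 2.

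Between the PEG gels 0 of the 9 genes passed the edgeR test, beside 1.28% of all genes, 0.814% higher and 0.464% lower in the non-degradable gel. DESeq2 passed 1, Lamb3 (log2 fold change -0.30 ± 0.0790 for non-degradable minus degradable, edgeR adjusted p = 0.104, DESeq2 adjusted p = 0.0179). At an unadjusted p under 0.05 there were 4 of the 9 genes, and 2203 of all 14870. Groups did not overlap for 5 of the 9 genes, beside 19.0% of all genes: Lama3, Lamc1, Col4a1 and Col4a2 had all non-degradable libraries above the degradable ones and Lamb3 had them below. The log2 difference was 0.76 ± 0.342 for Col4a1 (95% interval 0.0108 to 1.51, edgeR adjusted p = 0.333), 0.77 ± 0.356 for Col4a2 (-0.0150 to 1.55, edgeR adjusted p = 0.345) and 0.63 ± 0.222 for Lama3 (0.144 to 1.12, edgeR adjusted p = 0.229). The collagen IV intervals reach from near 0 to above 1.5, so a difference between the gels was neither shown nor closely bounded. For Lamb1 the difference was 0.08 ± 0.168 (-0.293 to 0.447, edgeR adjusted p = 0.859) and for Hspg2 -0.06 ± 0.0868 (-0.252 to 0.129, edgeR adjusted p = 0.770).

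Levels of different genes were compared per length, as RPKM over merged exons. In Matrigel the order was Lamb3 (23.1 ± 0.849 RPKM, SD, n = 3), Lamc1 (22.2 ± 0.330), Lama5 (19.0 ± 3.32), Hspg2 (14.1 ± 0.710) and Lamb2 (11.0 ± 0.879). Far below followed Lamb1 (1.04 ± 0.264), Col4a2 (1.04 ± 0.699), Col4a1 (0.852 ± 0.547) and Lama3 (0.759 ± 0.244). Lamb3 and Lamc1 overlapped, and so did each of the lowest 4 with its neighbour. In non-degradable PEG the order was Lama5 (23.1 ± 0.463), Lamc1 (22.3 ± 0.735), Lamb3 (17.3 ± 1.60), Hspg2 (11.0 ± 1.02), Lamb2 (9.44 ± 1.48), Col4a2 (5.70 ± 1.5), Col4a1 (4.22 ± 0.933), Lamb1 (2.22 ± 0.357) and Lama3 (1.11 ± 0.203). The neighbours Lama5 and Lamc1, Hspg2 and Lamb2, and Col4a2 and Col4a1 overlapped there. In degradable PEG the order was Lama5 (22.7 ± 0.364), Lamb3 (21.4 ± 1.16), Lamc1 (19.9 ± 1.86), Hspg2 (11.5 ± 0.956), Lamb2 (10.5 ± 1.02), Col4a2 (3.35 ± 0.714), Col4a1 (2.49 ± 0.540), Lamb1 (2.11 ± 0.182) and Lama3 (0.720 ± 0.0972). Lamb3 and Lamc1, Hspg2 and Lamb2, and Col4a2, Col4a1 and Lamb1 in turn overlapped. Thus even in non-degradable PEG the collagen IV genes stayed below the abundant laminin genes. With the length of the longest coding transcript instead, Lamb3 came first in Matrigel (31.4 RPKM) and degradable PEG (29.0 RPKM), and Lamb1 (3.62 RPKM) stood above the collagen IV genes in degradable PEG, overlapping with Col4a2. In non-degradable PEG the order by this length began with Lamc1 (24.2 RPKM), Lamb3 (23.5 RPKM) and Lama5 (23.1 RPKM). There Lamb3 overlapped with both Lamc1 and Lama5. This length was added after the data were seen.

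The share of each beta chain in the beta chain reads per kilobase was taken in each library as a description of the RNA, since beta 3 assembles into another laminin than beta 1 and beta 2. In Matrigel Lamb1 made up 2.97 ± 0.789% (SD, n = 3). Its mean share was 7.66 ± 0.606% with the non-degradable gel and 6.22 ± 0.686% with the degradable gel. Its share ran from 2.27% to 3.82% in Matrigel libraries and from 5.51% to 8.10% in PEG libraries, without overlap. In the same order of matrices, Lamb3 made up 65.8 ± 2.25%, 59.8 ± 2.30% and 62.9 ± 2.86%, and Lamb2 made up 31.2 ± 1.71%, 32.5 ± 1.73% and 30.9 ± 2.56%. These shares use merged exons. With the longest coding transcript as length, the mean share of Lamb1 was 3.97%, 10.1% and 8.23%. That of Lamb3 was then 69.7%, 62.8% and 66.0%, and that of Lamb2 26.3%, 27.1% and 25.8%. The log2 ratio of Lamb1 to Lamb2 was 1.34 higher in non-degradable and 1.11 higher in degradable PEG than in Matrigel. The log2 ratio of Lamb3 to Lamb1 was lower by 1.53 and 1.16, from libraries at 4.08 to 4.92 in Matrigel to 2.83 to 3.52 in PEG. Each of these 4 differences had an exact permutation p of 0.1 (2-sided, adjusted p = 0.171), the smallest possible, so no ratio could pass a 0.05 threshold here.

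The other ratios moved less. The log2 ratio of Lama5 to Lamc1 was 0.290 and 0.435 higher in non-degradable and degradable PEG than in Matrigel (exact permutation p = 0.1 each, adjusted p = 0.171). That of Lama3 to Lama5 was 0.60 higher in non-degradable than in degradable PEG (exact permutation p = 0.1, adjusted p = 0.171) and overlapped with Matrigel in both. The summed laminin level of the 6 chains differed by -0.0298 and 0.00683 on the log2 scale (exact permutation p = 0.7 and 0.9), with 72.2 to 81.2 RPKM in Matrigel, 71.9 to 80.6 in non-degradable and 76.5 to 78.2 in degradable PEG. The difference in summed laminin RNA was smaller than the spread among the Matrigel libraries.

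**Figure D3:**
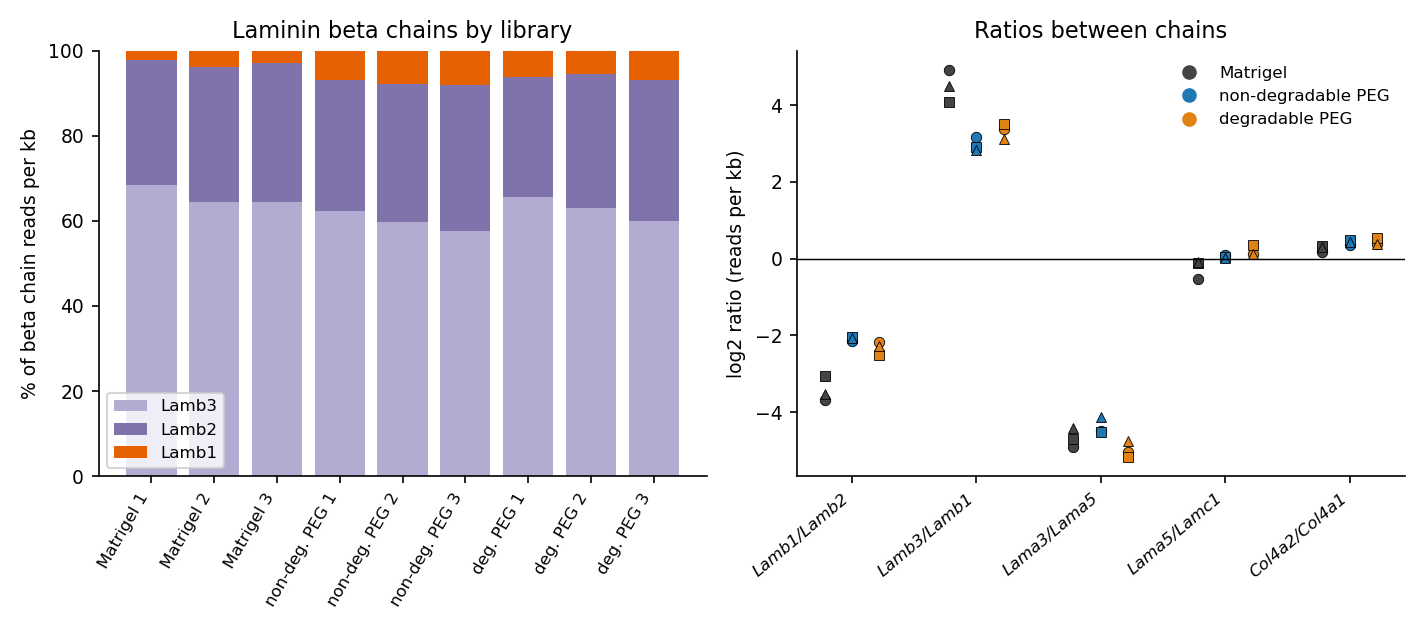
Left, the share of each beta chain in the beta chain reads per kilobase of merged exons (y axis, percent) of each library (x axis). Right, log2 ratios of reads per kilobase between pairs of chains (y axis) with 1 point per library, coloured by matrix and shaped by replicate (circle 1, square 2, triangle 3): the Lamb1 share is 2.27% to 3.82% in Matrigel and at least 5.51% in PEG.

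To see which genes followed the same course, the distance of each member's centred log2 CPM from that of 10648 other genes of mean at least 5 CPM was taken as a root mean square difference over the 9 libraries. These distances describe the libraries and carry no test. The root mean square of a member's own centred values was 0.181 for Hspg2, 0.194 for Lamb3 and 0.550 for Lamb1. It was 1.14 for Col4a1 and 1.22 for Col4a2. A small distance therefore says less for Hspg2 and Lamb3, which varied little, than for the collagen IV genes. Col4a1 and Col4a2 were each other's nearest gene, at 0.0987, the smallest distance of the 36 pairs of members, with Pfkfb3, a glycolysis regulator (0.418 and 0.437), and Fgf15, the gut hormone of bile acid feedback (0.420 and 0.462), next and much farther off. Pfkfb3 was at 16.7, 73.7 and 59.9 CPM in Matrigel, non-degradable and degradable PEG. Nearest to Lamb1 were Bmp8b, a BMP family ligand (0.0932), and Prdm1, a transcriptional repressor (0.123). Bmp8b was at 13.9, 29.8 and 26.7 CPM. Nearest to Lamb3 were Zfp212 (0.0619), Mreg (0.0760) and Zfp184 (0.0762), and nearest to Hspg2 were Hnrnpa1, an RNA-binding protein (0.0548), Fgfr1op (0.0616) and Zwilch, a kinetochore protein (0.0628).

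In the edgeR test with all 9 libraries, laminin and collagen IV chains outside the 9 genes did not pass in a comparison of 2 matrices. Lama4, the alpha chain of vessels and muscle, was at 0.233, 0.0774 and 0.342 CPM in Matrigel, non-degradable and degradable PEG and passed in the test over all 3 matrices (edgeR adjusted p = 0.0423). That call ended with DESeq2 (adjusted p = 0.0612) and when any library other than non-degradable PEG replicate 1 was left out (edgeR adjusted p of up to 0.135). Lama1, Lama2 and Lamc3 were too low to test. Of the 4 other collagen IV genes, Col4a5 was at 9.47, 11.8 and 9.0 CPM (edgeR adjusted p = 0.205 and 0.808). Col4a3 and Col4a6 were too low to test. Col4a4 was tested without passing, at very low means of 0.0727, 0.313 and 0.155 CPM. These stood in the same order of matrices as Col4a1 and Col4a2. Col4a4 libraries ran from 0.0256 to 0.126 CPM in Matrigel, 0.132 to 0.527 in non-degradable and 0.0775 to 0.289 in degradable PEG. With 1 library left out, 0 to 2 of the other collagen IV genes passed as raised in the non-degradable gel, and 0 in the degradable gel. Whether the change of Col4a1 or Col4a2 differed from that of Col4a4 or Col4a5 was not tested.

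Among 13 tested linkers and other basement membrane proteins (of 19 listed), 2 rose and 3 fell in non-degradable PEG, and 1 rose and 5 fell in degradable PEG, with median log2 fold changes of -0.05 and -0.07. Over all tested genes 9.71% rose and 7.13% fell in non-degradable PEG, and 7.42% rose and 4.79% fell in degradable PEG. Col18a1, the collagen XVIII core that carries heparan sulfate, rose in both gels, from 3.74, 9.26 and 5.24 CPM in Matrigel to 14.5, 16.9 and 19.4 in non-degradable and 14.7, 16 and 14.9 in degradable PEG (log2 fold change 1.47 ± 0.254 and 1.31 ± 0.254, edgeR adjusted p = 0.00306 and 0.00663). Nid1, nidogen 1, which links laminin to collagen IV, was at 10.2, 7.73 and 8.28 CPM in Matrigel, 14.3, 14.2 and 14.0 in non-degradable and 7.84, 6.21 and 7.86 in degradable PEG. It rose in non-degradable PEG (log2 fold change 0.70 ± 0.135, edgeR adjusted p = 0.00575) and its log2 fold change was -0.26 ± 0.137 in degradable PEG (edgeR adjusted p = 0.253). Ntn4, a netrin that binds laminin, fell in non-degradable and degradable PEG by 1.35 ± 0.208 and 1.51 ± 0.209 (edgeR adjusted p = 0.00155 and 0.00105). Smoc2, a matrix protein that is also a crypt base marker and drew most reads of the list, fell by 0.75 ± 0.0725 and 0.49 ± 0.0723 (edgeR adjusted p = 0.000142 and 0.00146). Fras1, an epithelial basement membrane protein, fell by 0.70 ± 0.205 and 0.92 ± 0.207 (edgeR adjusted p = 0.038 and 0.0148), with the first call ending in 6 of 18 alternatives and the second in 3, and Npnt, nephronectin, fell in degradable PEG by 0.36 ± 0.0808 (edgeR adjusted p = 0.0152), a call that ended without Matrigel replicate 2 (edgeR adjusted p = 0.0679). The call of Nid2, nidogen 2, the fifth gene that fell in degradable PEG, ended in 9 of 18 alternatives. Agrn (agrin), chosen after its values were seen as another heparan sulfate proteoglycan, was at 386, 420 and 399 CPM and did not pass (edgeR adjusted p = 0.333 and 0.751).

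Among enzymes that fold and cross-link collagen, those that passed were higher in PEG than in Matrigel. Of 10 tested (12 listed), 4 rose and 0 fell in non-degradable PEG, and 4 rose and 0 fell in degradable PEG, with median log2 fold changes of 0.42 and 0.20 beside -0.00210 and -0.0163 for all genes. P4ha1, a catalytic subunit of collagen prolyl hydroxylase, rose from 11.9, 15.3 and 16.4 CPM in Matrigel to 49.4, 52.2 and 74.3 in non-degradable PEG and 28.3, 35.8 and 51.9 in degradable PEG (log2 fold change 2.01 ± 0.224 and 1.41 ± 0.223, edgeR adjusted p = 0.000252 and 0.00209). P4ha2, the other such subunit, rose from 3.61, 6.74 and 6.12 CPM to 28.9, 23.7 and 44.8 CPM and to 13.6, 19.6 and 29.0 CPM (2.56 ± 0.321 and 1.91 ± 0.319, edgeR adjusted p = 0.000480 and 0.00282). For both genes all PEG libraries lay above all Matrigel libraries. Plod2, a collagen lysyl hydroxylase, rose in non-degradable PEG (0.84 ± 0.178, edgeR adjusted p = 0.00884), as did P4hb (0.32 ± 0.0861, edgeR adjusted p = 0.0278), whose call ended in 5 of 18 alternatives. Loxl2, a lysyl oxidase, and Pxdn, peroxidasin, which forms the sulfilimine bonds of the collagen IV network, rose in degradable PEG (1.25 ± 0.179 and 2.04 ± 0.447, edgeR adjusted p = 0.00121 and 0.0129). Both were low, at 0.994 and 0.174 CPM in Matrigel, and the Pxdn call ended without Matrigel replicate 3 (edgeR adjusted p = 0.0556). Serpinh1, the collagen chaperone, was too low to test.

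**Figure D4:**
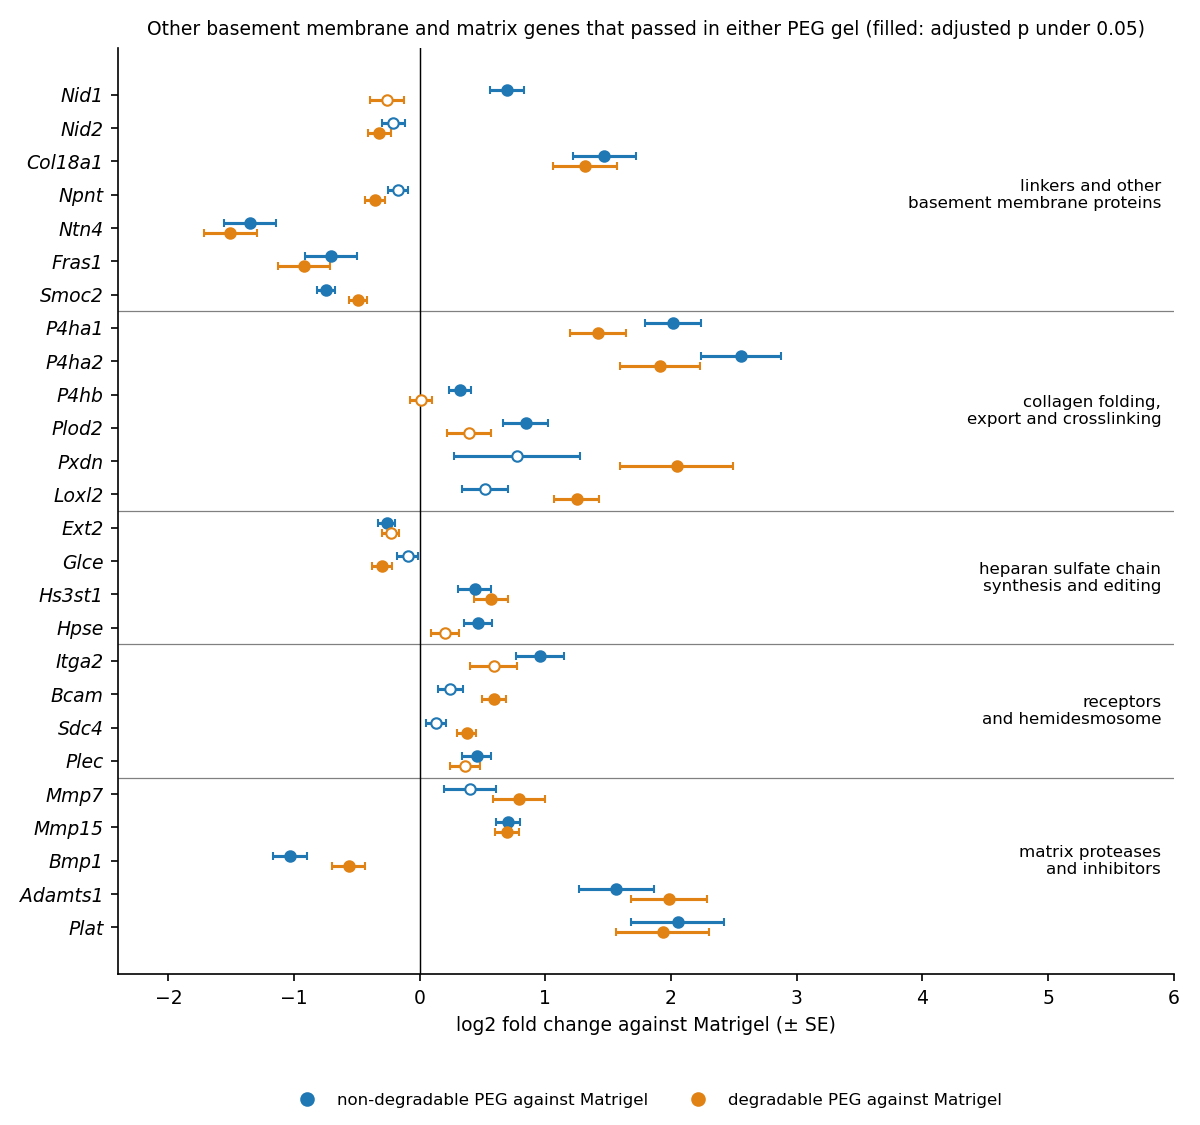
The log2 fold change against Matrigel (x axis, error bars are the standard error) of genes outside the 9 members that passed in at least 1 PEG gel (y axis), grouped by list and filled where the adjusted p was under 0.05. The collagen folding and crosslinking genes lie to the right of 0, led by P4ha2 at 2.56 in non-degradable PEG, and Ntn4 has the lowest points at -1.35 and -1.51.

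Of 16 tested genes for heparan sulfate, the sugar chain of perlecan, 2 rose (Hpse and Hs3st1) and 1 fell (Ext2) in non-degradable PEG, and 1 rose (Hs3st1) and 1 fell (Glce) in degradable PEG, with median log2 fold changes of -0.06 and -0.08. Hs3st1, a sulfotransferase, was at 12.3, 16.6 and 18.2 CPM (log2 fold change 0.44 ± 0.134 and 0.57 ± 0.134, edgeR adjusted p = 0.0453 and 0.0188), and the first call ended in 7 of 18 alternatives and the second in 2. The Glce call ended in 8 of 18 alternatives, the Ext2 call in 4 and the Hpse call in 2. Of 14 receptor and hemidesmosome genes, 2 rose in each gel and none fell. Itga2, the collagen-binding integrin alpha 2, was at 36.6, 71.3 and 55.1 CPM and passed in non-degradable PEG (log2 fold change 0.96 ± 0.189, edgeR adjusted p = 0.00632). Bcam, a receptor for the alpha 5 laminin chain, was at 13.6, 16.1 and 20.5 CPM and passed in degradable PEG (0.59 ± 0.0968, edgeR adjusted p = 0.00253). Plec, plectin of the hemidesmosome, rose in non-degradable PEG (0.45 ± 0.117, edgeR adjusted p = 0.0231), and Sdc4, syndecan 4, rose in degradable PEG (0.37 ± 0.0788, edgeR adjusted p = 0.0107). The Plec call ended in 4 of 18 alternatives. Dag1, dystroglycan, which drew most reads of these receptors, was at 511, 550 and 458 CPM and did not pass (edgeR adjusted p = 0.489 and 0.320). Of 11 tested matrix proteases and inhibitors, 4 rose and 1 fell in non-degradable PEG and 5 rose and 1 fell in degradable PEG. Mmp15, a membrane-bound matrix metalloproteinase, rose from 69.3 to 113 and 112 CPM (0.70 ± 0.0956 in both, edgeR adjusted p = 0.000763 and 0.000962). Plat, the tissue plasminogen activator, was at 3.37, 14.0 and 12.9 CPM (2.05 ± 0.370 and 1.93 ± 0.370, edgeR adjusted p = 0.00386 and 0.00621), and Adamts1, a metalloprotease of proteoglycans, was at 4.05, 12.1 and 16.1 CPM (1.56 ± 0.300 and 1.98 ± 0.301, edgeR adjusted p = 0.00550 and 0.00167). Bmp1, a procollagen C-proteinase, fell by 1.03 ± 0.132 and 0.57 ± 0.130 (edgeR adjusted p = 0.000557 and 0.0167), and its second call ended in 3 of 17 alternatives. Over all 7 lists together 14 of 68 tested genes rose and 5 fell in non-degradable PEG, and 13 rose and 7 fell in degradable PEG. These counts stand beside 9.71% higher and 7.13% lower over all tested genes in non-degradable PEG. In degradable PEG the shares over all tested genes were 7.42% and 4.79%. No list was tested as a set.

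Markers of cells that could bring basement membrane RNA from outside the epithelium were measured beside these results. The 11 mesenchymal markers summed to 125 to 274 CPM in Matrigel, 84.1 to 118 in non-degradable and 92.7 to 158 in degradable PEG, where only the non-degradable libraries lay below all Matrigel libraries, and 7 of them, among them Col1a2, Col3a1, Dcn and Lum, had a mean under 0.1 CPM in every matrix. Most of that sum was Vim, at 120 to 265 CPM in Matrigel libraries. Col1a1 was at 3.65, 4.80 and 4.26 CPM in Matrigel, non-degradable and degradable PEG. In the same order Pdgfra was at 2.15, 2.36 and 2.89 CPM and Pdgfrb at 0.797, 0.890 and 0.698 CPM. Smooth muscle markers summed to 0.368 to 0.569 CPM over all 9 libraries, and endothelial markers to 1.08 to 1.64, 1.45 to 1.67 and 1.5 to 1.96 CPM, with Cdh5, Kdr and Emcn under 0.1 CPM. Most of the endothelial sum was Vwf, at means of 1.11, 1.35 and 1.46 CPM. The 6 blood cell markers summed to 1.33 to 1.77 CPM in Matrigel, 2.97 to 3.91 in non-degradable and 1.98 to 2.61 in degradable PEG, with Ptprc, Cd3e, Cd79a and Hbb-bs under 0.1 CPM. Most of it was Itgam, and the sum stood in the same order of matrices as Col4a1 and Col4a2. Its part in the result was not tested. The 8 markers listed for the tumour that makes Matrigel summed to 275 to 312 CPM in Matrigel, 250 to 308 in non-degradable and 257 to 298 in degradable PEG. Most of this sum was Gata4 (172, 162 and 160 CPM) and Gata6 (103, 100 and 102 CPM). Sox17 (5.71, 6.60 and 7.91 CPM) and Nid1 were also expressed. In every matrix 4 of the 8 (Lama1, Sparc, Sox7 and Thbd) were under 0.1 CPM. Lama1, the alpha chain of the laminin of that tumour, had 0 to 2 reads per library. The part of the crypt base markers, which moved in different directions, in the laminin and collagen IV differences was not tested.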

How the data were processed

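The input was 9 tables of read counts per gene deposited by the authors, 1 per library. Per the submitters' processing notes, reads were trimmed with cutadapt 1.3, aligned to GRCm38 with STAR 2.4.2a and counted with HTSeq 0.6.1. RNA came, per the labels' protocols, from the RNeasy Micro kit and libraries from a stranded TruSeq mRNA protocol. The sources used here do not give the annotation or the strand setting of the counting, so reads in the 22 bases that Col4a1 and Col4a2 share, in 197 bases where Lama3 overlaps the antisense Gm29200 and in 43 bases where Col4a2 overlaps the antisense Gm15419 are uncertain. The antisense genes had at most 2 reads in a library.

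Each table held 46517 genes and 5 tally rows, which were removed. The featureless reads were 7.29% to 11.2% of a library. GENCODE M21 matched 46005 genes and gave symbols, coordinates and merged exon lengths. The function filterByExpr kept 14870 genes. Comparisons were contrasts in 1 edgeR 4.0.16 quasi-likelihood model with TMM scaling, fitted to the 9 libraries together with a mean for every matrix (R 4.3.3), with 6 residual and a median of 5.17 prior degrees of freedom. The biological coefficient of variation was 11.0%. A standard error is the size of the log2 fold change divided by the root of its F statistic, and intervals are at 95%. Ratios and sums were compared by exact permutation tests (2-sided, 20 arrangements), adjusted over 24. Alternatives were DESeq2 1.42.0 and its size factors, upper-quartile scaling, limma 3.58.1 voom, 3 other filters, the compared groups only, a replicate block, each library left out in turn, other scalings of ratios and a prior count of 5 in place of 2 for log2 CPM in distances. The longest coding transcript as length was added after the data were seen.

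On simulated counts for non-degradable PEG against Matrigel (14700 genes), the edgeR test recovered 75 of 100 genes changed 2-fold and 93 of 100 changed 4-fold, with 8 false calls. Replicate numbers come from the labels, which do not say what they share. Deviations of same-numbered libraries correlated at 0.331, 0.176 and 0.186 across genes between Matrigel and non-degradable PEG, so the numbers may pair these groups. Libraries of different numbers were not correlated in this way, so the pairing was not established. The main test used no pairing, and the replicate block was an alternative. Other pairs of groups went as low as 0.0712 and 0.0197.

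The 9 genes, the gene lists and the tests were chosen with earlier results of these data known. Named were all 9 genes, up to 4 genes of smallest p and the most abundant gene of each list, marker lists by their sums, and the 3 nearest genes of each member that passed over all matrices. Some genes that meet the rule are named without values, and some items, which stay in the counts, lists and adjustments, are not reported here.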

Additional observations from a re-analysis of the deposited data

Results flagged for a closer look

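Nid1, the laminin to collagen IV linker, was the only gene of the 7 lists of related genes that differed between the PEG gels in the edgeR test. It was at 14.1 CPM in non-degradable and 7.30 CPM in degradable PEG, a log2 difference of 0.95 ± 0.136 (edgeR adjusted p = 0.0133), with every non-degradable library above every degradable one. The call ended without non-degradable PEG replicate 1 (edgeR adjusted p = 0.0594) and without degradable PEG replicate 2 (0.0622).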

How the results depend on the processing

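Of 483 values of the 9 genes under alternatives, 453 kept their direction and their side of the threshold, 17 lost a call, 4 gained one and 9 changed sign. The calls of Lamb1 in both gels and of Lamb3, Col4a1 and Col4a2 in non-degradable PEG held in every alternative. A mean of 10 CPM left out Lama3. For non-degradable PEG against Matrigel, 1511 genes passed with a minimum mean of 10 CPM, 3877 with the replicate block and 1189 to 3247 with 1 library left out. For degradable PEG against Matrigel these counts were 948, 2783 and 1086 to 2395, and 1 to 4 of the 9 genes passed with 1 library left out. Between the PEG gels 521 genes passed with no filter, 91 with a mean of 10 CPM, 512 with DESeq2, 542 with the replicate block and 19 to 242 with 1 library left out. There DESeq2 passed 1 of the 9 genes, and of the related genes 5 passed with no filter, 7 with DESeq2, 7 with the replicate block and 0 to 2 with 1 library left out. Over all 3 matrices the counts were 1362, 3894 and 1507 to 3109. The replicate block changed no call of the 9 genes other than that of Lama3, which also passed over all 3 matrices. Same-numbered libraries of the PEG gels correlated at 0.288, 0.0197 and 0.511, and whether the numbers pair these gels was not established. Differences near 0 changed sign. With 1 library left out, the log2 ratio of Col4a2 to Col4a1 between the PEG gels ran from -0.0332 to 0.0510, and the summed laminin level from -0.0777 to 0.00869 in non-degradable and from -0.0397 to 0.0453 in degradable PEG against Matrigel. The summed laminin level without length was 0.0363 for non-degradable PEG. Among single genes, Lamc1 in non-degradable PEG was -0.00510 with no filter and ran from -0.0187 to 0.0235 with 1 library left out, Lama3 in degradable PEG from -0.298 to 0.158, Lamb2 in degradable PEG from -0.113 to 0.0172, Lamb1 between the PEG gels from -0.0623 to 0.150 and Hspg2 between them from -0.117 to 0.0140. Lama5 between the PEG gels was -0.00143 with upper-quartile scaling. The causes were not tested. With 3 libraries a group, the exact tests could not pass 0.05.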
